A study of Mus musculus with 12 samples.

Results

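Spontaneous liver tumors of mice were divided by the share of their RNA counts that came from albumin. A tumor was called albumin-rich where Alb, the albumin gene (mm9 chromosome 5 from 90889915 to 90905629), took at least 15% of all counts in its library, and albumin-poor where it took less. The rule placed 4 tumors on each side, out of 8 tumors and 12 libraries in all, and each side held 2 tumors of either genotype. The albumin-rich tumors were DKO 1, DKO 2, TKO 1 and TKO 2, and the albumin-poor tumors were DKO 3, DKO 4, TKO 3 and TKO 4, and values are given in these orders. Because the sides were selected on a value measured in these libraries, every difference between them is a description and none was tested.
In the mice of the tumors labelled DKO, E2f7 and E2f8 had been removed by Alb-Cre, a recombinase driven by the promoter of the albumin gene itself and active in hepatocytes, and in those of the tumors labelled TKO the same Cre had removed Rb1 as well. Tumors and the 4 control livers of wild-type mice were pieces snap-frozen from ageing adults in an end-of-life study of animals bred into the FVB strain. The paper calls the albumin promoter specific to hepatocytes, and the labels do not report whether other cells kept the deleted genes. Ages in numbers, sex and tumor grade are not given in the labels. Reads of 40 bases came from poly(A) RNA on a SOLiD instrument. With BWA the authors placed them on mm9, and FeatureCounts then gave 9165812 to 16424973 counts per library. The labels name the samples as separate tumors and livers but do not say whether any tumors shared a mouse. The authors' methods give 4 livers per condition. The p-values measure the spread between these samples.
Albumin is the most abundant protein of blood plasma. Hepatocytes secrete it through the endoplasmic reticulum, and in the blood it holds water in the vessels and carries fatty acids, bilirubin, hormones and drugs. Its gene lies in a cluster with those of alpha-fetoprotein (Afp), afamin (Afm) and the vitamin D binding protein (Gc), its short promoter is bound by factors of the C/EBP, NFI, NF-Y and PAR bZIP families, and its transcription is stronger in hepatocytes around the portal vein than around the central vein.

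The share of Alb was 22.7% in DKO 1, 19.4% in DKO 2, 18.9% in TKO 2 and 15.5% in TKO 1. In the albumin-poor tumors it was 12.5% in DKO 3, 11.9% in DKO 4, 7.03% in TKO 3 and 4.82% in TKO 4. TKO 1 and DKO 3 were thus the tumors just inside and just outside the threshold. Counting error was small beside these gaps, with 95% Wilson intervals of 15.4% to 15.5% for TKO 1 and 4.80% to 4.83% for TKO 4, which cover counting error only. In the control livers Alb took 6.57%, 9.79%, 10.1% and 8.83%, so that the albumin-poor DKO 3 and DKO 4 lay above every control liver, TKO 3 lay among the control livers and TKO 4 lay below all of them. Alb was the gene with the most counts in every library. The 10 genes with the most counts took 28.6% to 39.4% of an albumin-rich library, 14.01% to 23.8% of an albumin-poor library and 16.7% to 20.7% of a control library, and with Alb left out of the totals the 10 leading genes still took 16.4% to 23.0%, 10.3% to 13.8% and 10.9% to 13.8%.

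**Figure D1:**
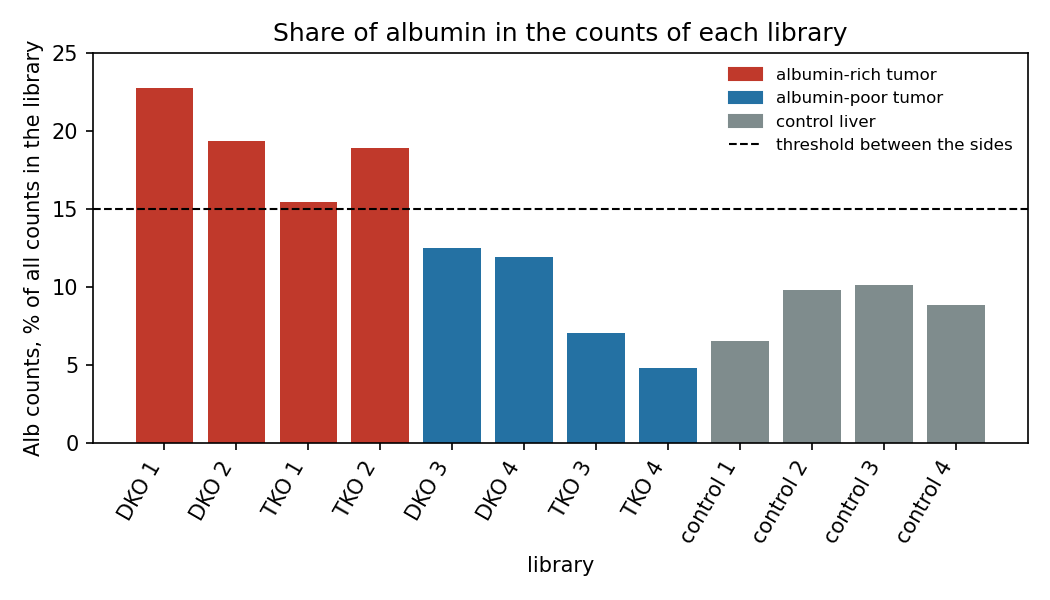
Share of Alb in all counts of each library, in percent, for the 4 albumin-rich tumors, the 4 albumin-poor tumors and the 4 control livers, with the threshold of 15% as a dashed line. The tumors run from 22.7% in DKO 1 to 4.82% in TKO 4, and the control livers from 6.57% to 10.1%.

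The deleted genes and the sex-linked genes served as checks of the labels. E2f7 had 4 to 24 counts per library, with 1.84, 1.58, 0.844 and 0.782 CPM in the albumin-rich and 0.946, 0.236, 0.6903 and 0.895 CPM in the albumin-poor tumors (CPM, counts scaled to a common library size with edgeR's TMM method), against 0.542 to 1.11 CPM in control livers. E2f8 was at 7.59, 45.6, 26.05 and 13.8 CPM and at 11.4, 17.3, 52.2 and 12.3 CPM in the tumors of the respective sides, against 4.52 to 8.97 CPM in control livers, so neither gene showed its deletion in counts summed over the whole gene. Rb1 was at 11.3, 8.38, 4.22 and 5.47 CPM in the albumin-rich and 7.99, 8.37, 4.91 and 3.21 CPM in the albumin-poor tumors. The 4 libraries labelled TKO held the 4 lowest values of Rb1 among all 12 libraries, on both sides of the albumin threshold.
Xist, the RNA of the inactive X chromosome, had 1 to 6 counts per library, and the Y-linked genes Ddx3y, Eif2s3y and Uty were present in all 12 libraries, as in males. Kdm5d, a Y-linked histone demethylase, was at 2.15, 1.11, 2.29 and 10.5 CPM in the albumin-rich and 8.46, 10.3, 11.2 and 10.9 CPM in the albumin-poor tumors, against 9.59 to 16.5 CPM in the control livers. DKO 1, DKO 2 and TKO 1 were thus low for Kdm5d while TKO 2 was level with the albumin-poor tumors, and the other Y-linked genes did not follow this pattern. Each sample description ends in a letter and a digit whose meaning the sources do not give. The letter was a, b, e or h in the albumin-rich tumors, i, j or k in the albumin-poor tumors and b, e or j in the control livers, so among tumors anything these letters stand for cannot be told apart from the albumin side.

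Differences are given as the mean log2 CPM (prior count 2) of the albumin-rich tumors minus that of the albumin-poor tumors. Of 13882 genes that passed edgeR's low-count filter, 867 had all 4 values of a side above all 4 values of the other (6.25%), 491 of them higher (3.54%) and 376 lower (2.71%) in albumin-rich tumors. The division itself makes this contrast, and nothing is read from these percentages. The difference was at least 2-fold for 159 of the higher and 73 of the lower genes. Of all 13882 genes, 6903 had a higher mean in albumin-rich tumors. All 491 and all 376 had the same direction within DKO and within TKO tumors, as non-overlap requires. The shares of 3.54% higher and 2.71% lower hold for all tested genes and can be set beside each count of list members. Those counts depend on single tumors, and fewer tumors overlap less, with 4.93% to 6.14% higher and 3.87% to 5.46% lower when a single tumor was left out.
The balance of higher and lower genes depended on scaling. The genes with the most counts took more of an albumin-rich library, and whether this moved the balance was not tested. The median difference of all genes was -0.00 with TMM, -0.30 with total counts as the only scaling and -0.13 with total counts without Alb. The genes without overlap numbered 124 higher and 1658 lower with total counts, and 238 higher and 770 lower with total counts without Alb. Those numbers, out of 13882 genes, can be set beside counts of list members under these scalings. Under all 4 scalings, DESeq2's size factors included, 124 genes were higher and 334 lower in albumin-rich tumors.
Of the 491 higher genes, 304 (61.9%) had all 4 albumin-rich tumors above every control liver, against 10.3% of all genes tested, and 15 (3.05%) had all 4 albumin-poor tumors above every control liver, against 4.14% of all genes tested. Of the 376 lower genes, 166 (44.1%) had all 4 albumin-rich tumors below every control liver, against 7.82% of all genes tested, and 47 (12.5%) had all albumin-poor tumors above every control liver, against the same 4.14%. The genes were chosen for values that were high or low on a side, so such shares differ from those of all genes by that choice, and nothing is read from the gaps. DKO 3, the albumin-poor tumor nearest the threshold, was the highest albumin-poor tumor for 190 of the 491 higher genes (38.7%, against 21.99% of all genes tested).
Albumin-rich tumors were closer to each other than albumin-poor tumors were. The root mean square difference in log2 CPM was taken over all tested genes other than Alb. It had a median of 0.637 (0.614 to 0.771) over the 6 pairs of albumin-rich tumors, 0.820 (0.747 to 1.03) over the 6 pairs of albumin-poor tumors and 0.815 (0.662 to 0.978) over the 16 pairs with a tumor from each side. In bulk samples such as these, fewer cells of a type and less RNA per cell cannot be told apart.

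In CPM, Alb itself was at 286273, 201652, 152062 and 206304 in the albumin-rich tumors and at 111685, 108819, 66998 and 37568 in the albumin-poor tumors, against 62569 to 111189 in control livers. Its neighbour Afm, which codes for a vitamin E binding protein of plasma, was at 567, 419.7, 291 and 379 CPM and at 177, 203, 166 and 148 CPM, against 172 to 249 CPM in control livers. The albumin-rich tumors were above every control liver for Afm, and all albumin-poor tumors were below every albumin-rich one. The difference was 1.22 (SD 0.40 among albumin-rich and 0.19 among albumin-poor tumors, n = 4 each), 1.36 within DKO and 1.08 within TKO tumors. Gc, the vitamin D carrier, was at 10769.8, 9241, 9386 and 9492 CPM against 7612, 6201, 7787 and 4311 CPM, a smaller difference of 0.62 (SD 0.10 and 0.39, n = 4 each). Afp, the fetal counterpart of albumin, had a similar difference of 0.56 but with overlap, at 29.7, 29.7, 3.799 and 6.25 CPM in the albumin-rich and 5.91, 104, 1.69 and 4.03 CPM in the albumin-poor tumors. Its highest value was in the albumin-poor DKO 4, and 5 of the 8 tumors were above every control liver (2.37 to 4.61 CPM). Without Alb, which was higher by the division itself, 2 of 3 members of the family were higher and 0 lower without overlap, with a median difference of 0.62 (0.32 with total counts alone).
The 4 genes lie on chromosome 5. In mm9 Afp runs from 90919740 to 90937933 and Afm from 90947958 to 90982569, close to Alb. Gc, from 89846549 to 89886790, lies much farther from Alb than Afp and Afm do. The promoters of the 4 genes are shown because Afm and Gc were higher with Alb and Afp overlapped. The sequences are the 150 bases before the transcription start in RefSeq's GRCm38.p6, a later build than the mm9 of the counts.
Alb, chr5:90460720-90460869, plus strand: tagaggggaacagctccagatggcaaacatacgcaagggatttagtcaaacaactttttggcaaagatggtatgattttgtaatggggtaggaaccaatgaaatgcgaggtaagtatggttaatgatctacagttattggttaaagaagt
Afp, chr5:90490564-90490713, plus strand: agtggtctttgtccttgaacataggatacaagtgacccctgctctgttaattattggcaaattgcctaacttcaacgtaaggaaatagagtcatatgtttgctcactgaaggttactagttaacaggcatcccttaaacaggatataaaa
Afm, chr5:90518799-90518948, plus strand: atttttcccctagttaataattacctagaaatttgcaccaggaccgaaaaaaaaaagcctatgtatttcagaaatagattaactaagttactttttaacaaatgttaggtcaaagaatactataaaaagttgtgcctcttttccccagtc
Gc, chr5:89457899-89458048, minus strand: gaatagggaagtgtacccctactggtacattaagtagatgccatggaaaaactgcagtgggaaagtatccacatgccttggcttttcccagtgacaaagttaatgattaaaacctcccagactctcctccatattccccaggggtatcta

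Of 19 transcription factors that bind the albumin promoter, 0 were higher and 1 was lower without overlap (5.26%, against 6.25% of all tested genes in either direction). The median difference was 0.04 (-0.01 without TKO 4, -0.06 without DKO 4 and TKO 4 and -0.26 with total counts). Cebpa, the C/EBP factor of quiescent hepatocytes, was at 137, 177, 198 and 285 CPM in the albumin-rich and 147, 166, 281 and 115 CPM in the albumin-poor tumors, with overlap. The factor without overlap was Cebpb, a C/EBP factor induced by cytokines and during regeneration, which was lower in the albumin-rich tumors at 20.5, 17.2, 21.5 and 20.3 CPM against 23.2, 30.7, 21.6 and 34.2 CPM. The non-overlap was lost with total counts without Alb, and the control livers were higher than most tumors at 28.8 to 63.1 CPM.
Foxa3, a forkhead factor that opens hepatocyte enhancers, had the highest difference among the promoter factors, 0.95, with 112, 146, 138 and 178 CPM against 82.9, 112, 47.8 and 64.4 CPM. DKO 2, TKO 1 and TKO 2 were above every albumin-poor tumor while DKO 1 was level with DKO 4, and with DESeq2's size factors Foxa3 was without overlap. Foxa1 and Foxa2 differed by 0.03 and -0.03. Among the PAR bZIP factors, whose RNA cycles over the day, Dbp was at 4.98, 4.904, 62.9 and 47.5 CPM and 13.3, 38.9, 13.3 and 44.2 CPM, and Tef was at 61.8, 81.2, 304 and 168 CPM and 161, 186, 89.1 and 214 CPM. Dbp was thus low in the albumin-rich DKO tumors and high in the albumin-rich TKO tumors, with differences of -2.17 within DKO and 1.16 within TKO tumors that were not tested against each other, and times of day are not given in the labels. Hlf, of the same family, was at 33.04 to 55.4 CPM in albumin-rich and 40.04 to 104 CPM in albumin-poor tumors. The NFI factors Nfia, Nfib and Nfic differed by 0.20, 0.12 and 0.04 and Nfix by -0.65, and the NF-Y subunits Nfya, Nfyb and Nfyc by 0.25, -0.04 and 0.13, all with overlap. Cebpd and Nfil3, a repressor of PAR bZIP sites, differed by -0.73 and 0.33, also with overlap.
Of 24 further transcription factors of hepatocytes, 1 was higher and 2 were lower without overlap, against 3.54% and 2.71% of all tested genes. Without DKO 3, 3 were higher (5.47% of all genes were), and 4 were lower without DKO 2 (4.55%), DKO 3 (5.06%) or TKO 2 (4.93%). The median was 0.05 (-0.26 with total counts, -0.02 without DKO 1, -0.03 without TKO 4 and -0.07 without DKO 4 and TKO 4). Hnf4a, the central regulator of hepatocyte genes, was at 814, 627, 626 and 801 CPM and 649, 837, 696 and 541 CPM, against 553 to 717 CPM in control livers, so tumors on both sides held it near the level of normal liver. Onecut2, a relative of the factor HNF6, was lower in albumin-rich tumors without overlap, at 12.04, 9.49, 12.4 and 10.4 CPM against 27.9, 54.7, 36.7 and 43.6 CPM, and the albumin-rich tumors were below every control liver (48.5 to 65.9 CPM). Its paralog Onecut1 pointed the other way by means, at 9.51, 13.5, 13.9 and 23.7 CPM against 15.6, 5.78, 6.14 and 2.46 CPM, with DKO 3 inside the albumin-rich range. Gata6 was higher, at 9.05, 7.36, 8.44 and 11.2 CPM against 6.15, 4.19, 7.06 and 5.07 CPM without overlap, which was lost with total counts. Tbx3, a repressor controlled by beta-catenin, had the lowest difference of the list, -1.88, with 7.93 to 88.3 CPM in albumin-poor and 4.46 to 35.8 CPM in albumin-rich tumors, and Atf5 was higher by 0.85 with overlap.

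Other proteins that the liver secretes into plasma were described next. Of 27 plasma carriers and protease inhibitors, 9 were higher and 0 lower without overlap, against 3.54% and 2.71% of all tested genes. The same shares hold beside the counts over all 8 tumors in each list that follows. In albumin-rich tumors 25 had a higher mean, as had 6903 of all 13882 genes, and 2 a lower mean. The median was 0.77 (0.47 with total counts, where 7 were higher and 1 lower, against 124 and 1658 of all genes). The genes of the Serpina1 family, which code for alpha-1-antitrypsin, had the highest differences. Serpina1e was at 10848, 9737, 4977 and 7188 CPM in the albumin-rich and 3545, 868, 3286 and 636 CPM in the albumin-poor tumors, a 4.92-fold difference in geometric means. Serpina1d was at 2181, 1649, 1669 and 2423 CPM against 983, 324, 651 and 176 CPM, and its albumin-rich tumors were above every control liver (627 to 965 CPM). DKO 4 and TKO 4 were the lowest tumors for both genes. These copies are near-identical, as are those of the Mup, Cyp2c, Gsta, Saa, Hbb and Tubb2 families, and since the strand setting and the handling of reads with several matches are not named in the sources, the split among copies is uncertain.
Ahsg, which codes for fetuin-A, an inhibitor of mineral deposition in plasma, was at 14359, 14202, 14417 and 18144 CPM against 7880.1, 11212, 5906 and 3270.4 CPM, with all albumin-rich tumors above every control liver (4743 to 6672 CPM), although the non-overlap was lost with total counts. Trf, the iron carrier transferrin, was at 80622, 33184, 27506 and 39770.2 CPM and 29897, 33656, 21985 and 15616 CPM, with DKO 3 and DKO 4 inside the albumin-rich range. Its highest value was that of DKO 1. The 2 genes with a lower mean were Rbp4 and Serpina7. Rbp4, which carries retinol, was at 1884, 2005, 1919 and 2140.1 CPM and 2004, 2646, 2411 and 2091 CPM, and Serpina7, which binds thyroid hormone, had a difference of -0.95 with overlap.
Of 16 apolipoproteins and lipoprotein factors, 5 were higher and 0 lower without overlap (8 higher without TKO 3, where 5.19% of all genes were), with a median of 0.40 (0.10 with total counts). With total counts 3 were higher and 1, Apoe, was lower, against 124 and 1658 of all 13882 genes. Apoa4, made by intestine and liver for triglyceride-rich particles, was at 3244, 1631, 1901 and 867 CPM in the albumin-rich and 590.2, 427, 104 and 272 CPM in the albumin-poor tumors, against 184 to 207 CPM in control livers. Apoc2, the cofactor of lipoprotein lipase, was at 430.4, 272, 562 and 266 CPM against 127, 43.1, 83.1 and 55.2 CPM, and Apoa1, the main protein of high-density lipoprotein, at 15371, 12579.5, 14568 and 17834 CPM against 6508, 6789.8, 8296 and 4543 CPM. All albumin-rich tumors were above all control livers for these genes (73.9 to 199 CPM for Apoc2 and 6437 to 11644 CPM for Apoa1). Apoe, which guides the uptake of remnants, did not follow, at 5327, 5149, 5724 and 6537 CPM against 5869.8, 6796, 8107 and 5018 CPM, nor did the phospholipid transfer protein Pltp, with a difference of -0.54 and overlap.
Of 19 clotting genes, 2 were higher and 0 lower without overlap (6 higher without TKO 3, where 5.19% of all genes were), with a median of 0.46 (0.15 with total counts, where 1 was higher). Serpinf2, the inhibitor of plasmin, was at 3109.8, 2095, 2584 and 3456 CPM against 1471, 1076, 2177 and 779 CPM, with TKO 3 inside the albumin-rich range. Fgg, a fibrinogen chain, ran from 2636 to 8728 CPM and from 1038 to 4596 CPM, while Klkb1 and Pros1 had the lowest differences, -0.07 and -0.38. Of 18 complement genes, 1 was higher and 0 were lower without overlap, and the median was 0.33 (0.21 without TKO 4 to 0.49 without TKO 3). It became 0.03 with total counts, where 2 were lower, against 1658 of all 13882 genes. Without DKO 4 and TKO 4 it was -0.05, and 4 were lower (10.6% of all genes were). Without DKO 4 alone, 2 were lower (5.46% of all genes were). The higher gene was Cfi, the protease that inactivates C3b, at 1744, 987, 929.7 and 1441 CPM against 819, 574, 718 and 373 CPM. C9, of the membrane attack complex, was low in DKO 4 and TKO 4 (49.3 and 93.8 CPM) and at 456 CPM in TKO 2, 629.8 CPM in DKO 3 and 748 CPM in TKO 3, and C6 and Mbl2 were the complement genes with the lowest differences, -1.23 and -0.62, with overlap.
Acute-phase genes split. Of 22 tested, 3 were higher and 1 was lower without overlap. Without DKO 4, 6 were higher (6.14% of all genes were), 3 were lower without DKO 1 (4.03%) and 4 without DKO 3 (5.06%). With total counts 1 was higher and 4 were lower, against 124 and 1658 of all 13882 genes. With total counts without Alb 2 were higher and 4 lower, against 238 and 770. The median was 0.06. It was -0.15 without DKO 1, -0.10 without TKO 2, -0.05 without TKO 4 and 0.02 without DKO 3, but 0.30 without DKO 2, 0.29 without TKO 1, 0.19 without DKO 4 and 0.18 without TKO 3, and -0.24 with total counts, -0.07 with total counts without Alb and -0.14 without DKO 4 and TKO 4. Il1rn, the antagonist of the interleukin-1 receptor, was higher at 37.6, 35.1, 31.5 and 43.5 CPM against 15.4, 15.6, 8.74 and 12.7 CPM, with albumin-rich tumors above every control liver (6.27 to 13.1 CPM). The serum amyloid genes Saa1 and Saa2 were at the other end, with differences of -1.12 and -1.36 and overlap. Both were lower without overlap with total counts and with total counts without Alb. Lcn2, an iron-chelating acute-phase protein, at 364, 30.1, 58.01 and 106 CPM and 28.9, 68.9, 17.9 and 24.8 CPM, was led by DKO 1.
Of 54 genes of the endoplasmic reticulum and early secretory pathway, 6 were higher and 0 lower without overlap (13 higher without TKO 2, where 5.94% of all genes were), and the median of 0.22 turned to -0.08 with total counts. In that scaling 1 was higher, against 124 of all 13882 genes, and with total counts without Alb 3 were, against 238. Xbp1, which drives the expansion of the endoplasmic reticulum in secretory cells, was at 725, 674, 539 and 706 CPM in the albumin-rich and 379.9, 492, 378 and 285 CPM in the albumin-poor tumors, with the albumin-rich tumors above every control liver (329 to 498 CPM). Pdia6, which forms disulfide bonds, was at 265, 275, 263 and 255 CPM against 177, 191, 222 and 115 CPM, and overlapped with total counts. The stress sensors Atf6 and Eif2ak3 had the lowest differences of the list, -0.15 and -0.37, with overlap.

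The highest differences without overlap were mostly not those of plasma proteins. Among genes with a mean of at least 5 CPM in the tumors, the 15 highest were led by Tff3, a trefoil peptide of mucous epithelia, which was at 78.7, 124, 589.9 and 382 CPM in the albumin-rich and 55.6, 9.85, 16.9 and 9.92 CPM in the albumin-poor tumors, against 4.06 to 12.8 CPM in control livers. Gldn, an adhesion protein best known from the nodes of nerve fibers, was at 94.8, 83.6, 53.3 and 136 CPM against 49.5, 10.7, 2.07 and 2.54 CPM. In both genes the gap was wider in TKO tumors, with differences of 5.18 and 5.13, than in DKO tumors, with 2.07 and 1.94, where DKO 3 lay just under the albumin-rich range.
Prom2, a membrane protein of protrusions, was at 73.3, 39.1, 37.3 and 119 CPM against 18.3, 29.5, 3.14 and 2.54 CPM, and Igdcc4, an immunoglobulin superfamily receptor known from fetal liver cells, was at 21.2, 36.5, 53.1 and 87.98 CPM against 17.04, 15.98, 2.45 and 2.98 CPM. Galnt6, which starts O-glycosylation in the Golgi, was at 11.04, 64.8, 42.8 and 34.8 CPM against 7.45, 3.95, 4.45 and 3.66 CPM. For these genes the albumin-poor TKO 3 and TKO 4 were near the control livers (1.23 to 2.82, 1.84 to 2.93 and 2.51 to 4.89 CPM) and all albumin-rich tumors were above them.
Phgdh, which commits glycolytic carbon to serine synthesis, was at 8.82, 6.72, 9.53 and 29.9 CPM against 1.12, 6.25, 0.384 and 0.746 CPM, so that DKO 4 came close to DKO 2. Aldh1b1, a mitochondrial aldehyde dehydrogenase, was at 128, 129, 262 and 200.1 CPM against 119.7, 9.37, 51.2 and 12.8 CPM, with DKO 3 next to the albumin-rich DKO tumors and DKO 4 and TKO 4 the lowest of all 12 libraries. Tstd1, a sulfurtransferase, was at 57.2, 37.02, 64.5 and 66.2 CPM against 20.2, 2.299, 21.8 and 3.21 CPM, and here again DKO 4 and TKO 4 were below the control livers (13.8 to 21.3 CPM).
Receptors, matrix and signalling genes were also among them. Chrm3, the M3 muscarinic receptor, was at 20.2, 6.88, 8.98 and 10.6 CPM against 3.84, 0.472, 1.15 and 1.49 CPM. Col4a3, a basement membrane collagen, was at 14.2, 6.33, 17.7 and 14.5 CPM against 5.32, 0.943, 0.614 and 1.04 CPM, and Tnfsf13, the B-cell growth factor APRIL, at 10.96, 9.41, 9.17 and 9.88 CPM against 1.95, 4.95, 0.537 and 1.19 CPM. Tnfsf13 was the most even of these across the albumin-rich tumors, all at 9.17 to 10.96 CPM. Wfdc15b and Ipcef1 differed by 3.30 and 3.16, and Dntt, the terminal transferase of lymphocyte precursors, by 2.74, with levels of at most 16.6, 24.6 and 21.6 CPM. Apoa4 completed the 15. In 14 of the 15, all albumin-rich tumors were above every control liver, and 0 of the 15 had all albumin-poor tumors above them. Gldn, Phgdh, Dntt, Igdcc4 and Aldh1b1 lost the non-overlap with total counts, Igdcc4 and Aldh1b1 also with total counts without Alb, and the other 10 had none of their values overlap under any of the 4 scalings.

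**Figure D2:**
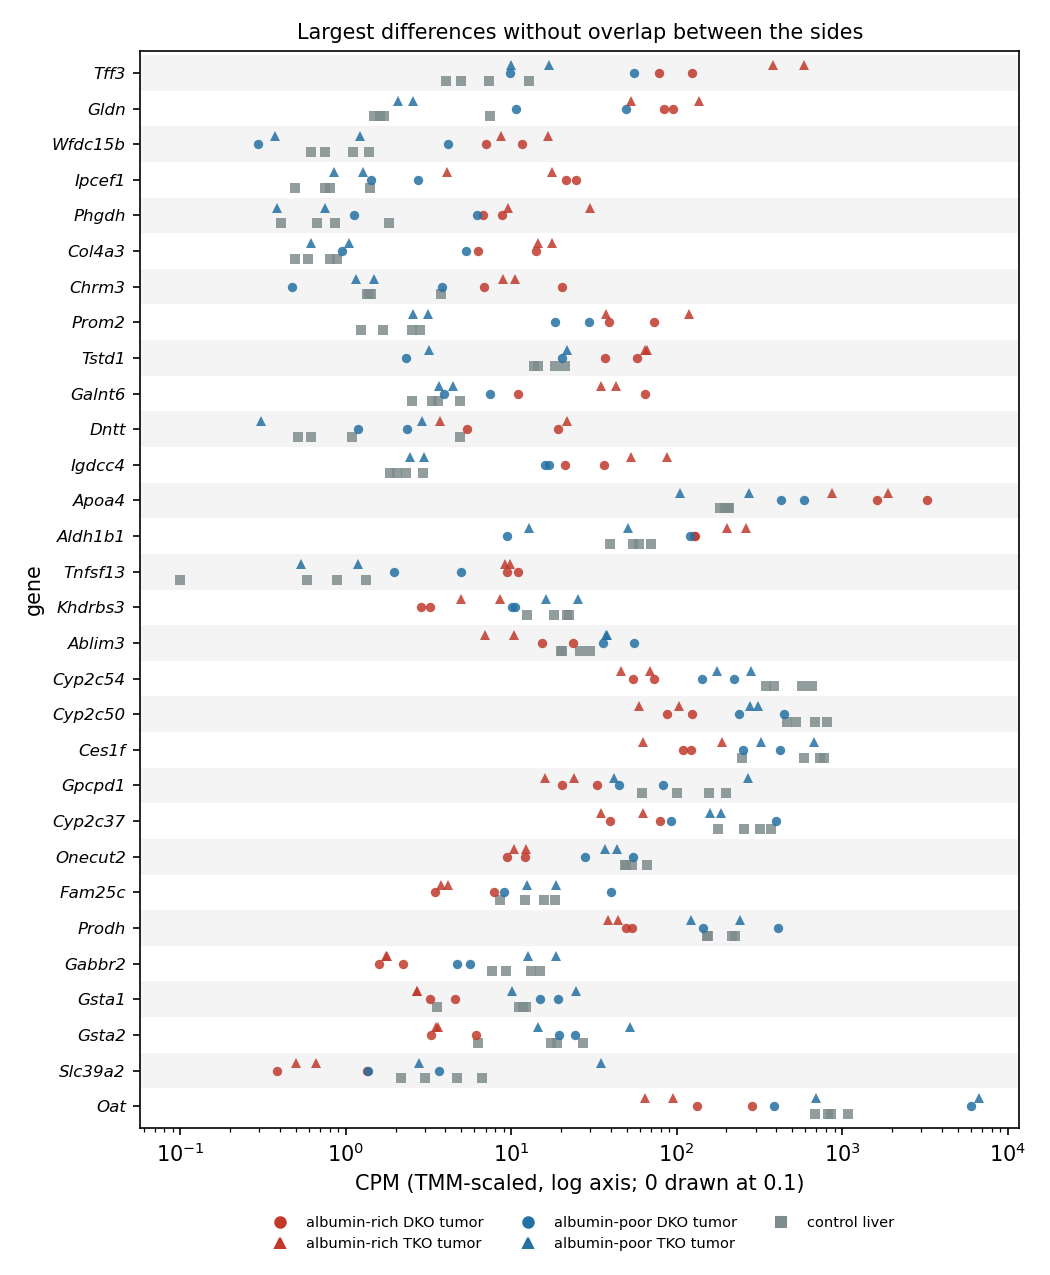
CPM on a log axis of the 15 highest and the 15 lowest differences between albumin-rich and albumin-poor tumors among genes without overlap and with a mean of at least 5 CPM in the 8 tumors, each point a library (circles DKO, triangles TKO, squares control livers). In the upper 15 genes the albumin-rich tumors lie to the right of the control livers in 14, and in the lower 15 they lie to the left of them in 13.

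The lowest difference belonged to Oat, ornithine aminotransferase, an enzyme of the pericentral liver that beta-catenin controls. Oat was at 134, 284, 95.1 and 63.96 CPM in the albumin-rich and 389, 5998, 698 and 6758 CPM in the albumin-poor tumors, against 687 to 1079.6 CPM in control livers. DKO 4 and TKO 4 were far above the control livers, while all albumin-rich tumors and DKO 3 were below them. Prodh, which starts the breakdown of proline, was at 53.7, 49.5, 43.96 and 38.7 CPM against 143, 410.4, 123 and 240.2 CPM, a 4.42-fold difference in geometric means, and here DKO 3 and TKO 3 lay just under the control range (153 to 224 CPM).
The glutathione transferase genes Gsta1 and Gsta2 were at 3.22, 4.59, 2.71 and 2.701 CPM against 14.8, 19.3, 10.05 and 24.5 CPM and at 3.297, 6.09, 3.497 and 3.62 CPM against 24.4, 19.5, 14.6 and 52.6 CPM. Among cytochrome P450 genes of the Cyp2c family, which oxidize arachidonic acid and drugs, Cyp2c54 was at 54.3, 73.2, 46.1 and 69.4 CPM against 141, 221, 281 and 176 CPM, and Cyp2c37 and Cyp2c50 were lower by 3.55-fold and 3.42-fold in albumin-rich tumors. For Cyp2c54 every tumor was below every control liver (345 to 657 CPM), with the albumin-poor tumors in between. Ces1f, a carboxylesterase, was at 108, 123, 188 and 62.9 CPM against 253, 422, 674 and 325 CPM, and Gpcpd1, which breaks down glycerophosphocholine, was at 20.4, 32.9, 24.1 and 16.1 CPM against 44.8, 82.7, 41.6 and 268 CPM.
Further genes of this group were Gabbr2, a subunit of the GABA-B receptor, at 2.22, 1.58, 1.75 and 1.78 CPM against 5.62, 4.72, 18.7 and 12.6 CPM, and Khdrbs3, an RNA-binding protein, at 2.84, 3.24, 8.56 and 4.97 CPM against 10.2, 10.6, 16.3 and 25.2 CPM. Slc39a2, a zinc importer, was at 0.383, 1.34, 0.663 and 0.497 CPM against 1.36, 3.66, 2.76 and 34.8 CPM, highest in TKO 4. Ablim3, an actin-binding protein, and Fam25c were lower by 3.197-fold and 3.65-fold in albumin-rich tumors. With Onecut2 these make 15 genes, and all 15 had no overlap under any of the 4 scalings. In 13 of them all albumin-rich tumors were below every control liver.

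Genes of liver zonation divided the tumors along a line that did not match the albumin sides. Glul, which codes for glutamine synthetase and marks hepatocytes next to the central vein, was at 223, 3138, 256 and 213 CPM in the albumin-rich and 473, 7472, 574 and 10331 CPM in the albumin-poor tumors, against 463 to 781 CPM in control livers. Axin2, a feedback inhibitor of beta-catenin signalling, was at 2.99, 45.8, 2.53 and 3.55 CPM and 5.97, 41.3, 9.97 and 75.05 CPM, and Lgr5, a receptor that amplifies it, at 0.997, 20.7, 1.93 and 2.13 CPM and 2.19, 22.7, 2.07 and 44.1 CPM. The albumin-rich DKO 2 and the albumin-poor DKO 4 and TKO 4 were high for all 3 genes, and the other 5 tumors were not.
Of 21 genes controlled by beta-catenin, 0 were higher and 1, Oat, was lower without overlap, and the median was -1.64. Without DKO 2, 11 of the 21 were lower (4.55% of all genes were) and the median was -2.35, without TKO 4 it was -0.68, and without DKO 4 and TKO 4 the median was -0.24. Cyp1a2 and Cyp2e1, pericentral enzymes of drug oxidation, were at 102, 773, 144 and 135 CPM against 346, 2681, 539 and 3979 CPM and at 547, 5167, 1454 and 1209 CPM against 2604, 10839.7, 6929 and 12003 CPM. The highest differences in this list were those of Slc1a4 and Cpn1, 0.38 and 0.33, with overlap.
Of 13 periportal genes other than Alb, 2, Apoa4 and Aldh1b1, were higher and 0 lower without overlap, with a median of 1.17. With Alb counted among them the median was 1.19 (0.44 without DKO 4 to 1.70 without TKO 3), and it turned to -0.36 without DKO 4 and TKO 4. In that setting 3 of the 14 were higher and 4 lower without overlap, against 10.1% and 10.6% of all genes. Gls2, the liver glutaminase, was at 264, 184, 277 and 281 CPM against 296, 15.1, 399 and 37.8 CPM, and Hal, which degrades histidine, at 277, 104, 85.7 and 244 CPM against 148, 18.04, 333 and 26.3 CPM. The low values belonged to DKO 4 and TKO 4 in each, while DKO 3 and TKO 3 were within or above the albumin-rich range, so the low periportal mean of the albumin-poor side came from DKO 4 and TKO 4. Cyp2f2, a periportal cytochrome, was at 2256, 437, 1555 and 815 CPM against 1739.8, 79.3, 1529 and 207 CPM, and DKO 2 was the lowest albumin-rich tumor for it. Slc38a3 and Pck1 had the lowest differences of the list, 0.12 and 0.02.
The genes without overlap between albumin-rich and albumin-poor tumors numbered 2878 without DKO 4 and TKO 4 (1407 higher and 1471 lower), a choice made after the data were seen, and 1948 without TKO 1 and DKO 3, the tumors nearest the threshold (1001 higher and 947 lower). With fewer tumors, non-overlap is easier to reach, and with a single tumor left out the count was 1336 without DKO 2, 1461 without DKO 3, 1611 without DKO 4, 1509 without TKO 2 and 1351 without TKO 3, against 1221 to 1253 without DKO 1, TKO 1 or TKO 4.

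**Figure D3:**
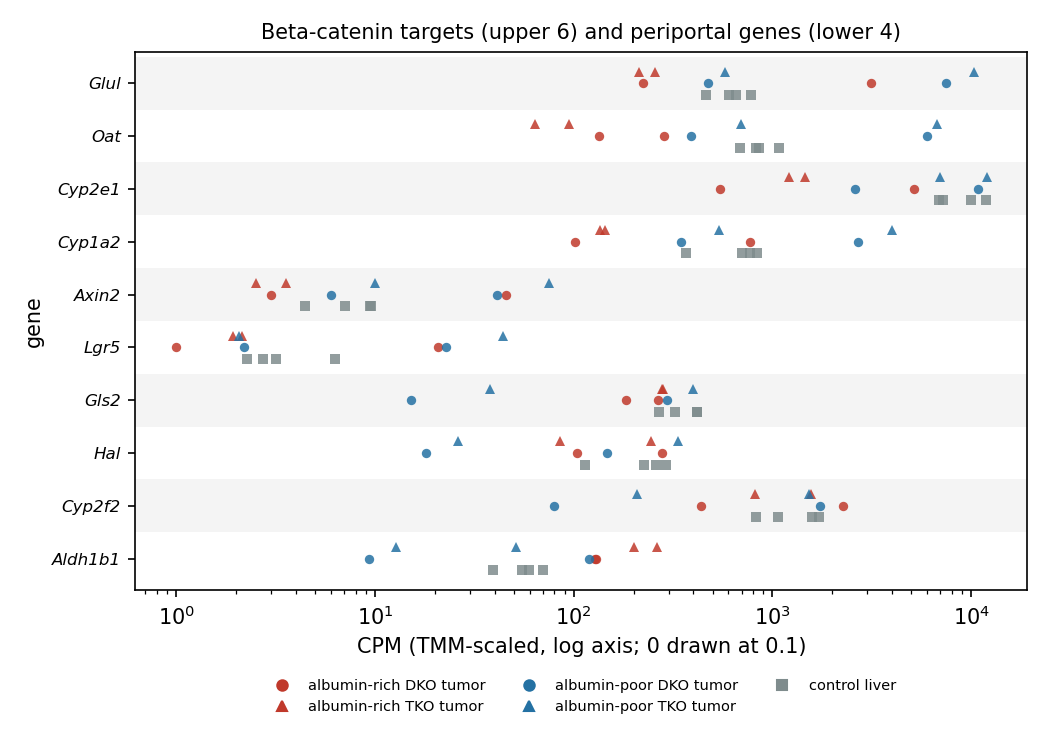
CPM on a log axis of 6 genes controlled by beta-catenin and 4 periportal genes, each point a library (circles DKO, triangles TKO, squares control livers). DKO 4 and TKO 4 lie at the high end for Glul, Oat, Axin2 and Lgr5 and at the low end for Gls2, Hal, Cyp2f2 and Aldh1b1, and the albumin-rich DKO 2 joins them for Glul, Axin2 and Lgr5.

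Amino acid metabolism was described with 32 genes, of which 0 were higher and 5 lower without overlap, with a median of -0.12 (0.02 without TKO 3, -0.06 without DKO 2, -0.19 without DKO 1, -0.26 without DKO 4, -0.24 without TKO 4 and -0.52 without DKO 4 and TKO 4). The lower genes numbered 8 without DKO 2 (4.55% of all genes were lower) or TKO 4 (3.87%) and 16 without DKO 4 and TKO 4 (10.6%). Oat and Prodh were its lowest differences, and Gls2 was among its highest at 1.45. Of 25 cytochrome P450 genes and their reductase, 0 were higher and 3 lower without overlap, all of the Cyp2c family. Without DKO 2, 6 were lower (4.55% of all genes were), and 5 without DKO 3 (5.06%), DKO 4 (5.46%) or TKO 3 (4.54%). The median was -0.45 (-0.68 without DKO 1 to -0.47 without DKO 3). Cyp2a12 and Cyp2f2 had the highest differences, 1.07 and 1.21, and Cyp1a2 and Cyp2e1 the lowest, -2.59 and -2.22.
Bile acid genes had a lower mean in albumin-rich tumors for 17 of 18, but 0 were without overlap in either direction, and the median was -0.43. Among all 13882 genes, 6903 had a higher mean. Without DKO 2, 4 of the 18 were lower without overlap (4.55% of all genes were), 3 without DKO 3 (5.06%), 2 without TKO 4 (3.87%), and 1 without DKO 1 (4.03%) or DKO 4 (5.46%). With total counts 3 were lower, against 1658 of all 13882 genes. With total counts without Alb 2 were, against 770 of all genes. Cyp7a1, the rate-limiting enzyme of bile acid synthesis, was at 41.7, 334, 164 and 74.9 CPM against 148, 731, 196 and 732 CPM, and Cyp7b1, of the alternative pathway, at 61.2, 279, 104 and 82.5 CPM against 407, 131, 419.6 and 422 CPM. DKO 2 was the highest albumin-rich tumor for both. Akr1d1 and Abcb11, the bile salt export pump, had the highest differences, 0.20 and -0.00. The summed level of the list was 4502, 5379.7, 4192 and 3898 CPM in the albumin-rich and 5450.1, 8744, 7154 and 7663 CPM in the albumin-poor tumors, against 7955 to 10157 CPM in control livers.
The genes that differ between the sexes in mouse liver were described as well. Of 26 male-biased genes, 1 was higher and 1 lower without overlap, with a median of -0.75 (-1.54 without DKO 4 to -0.34 without TKO 3) that became -1.81 without DKO 4 and TKO 4. In that setting 15 were lower and 1 higher, against 10.6% and 10.1% of all genes. Without DKO 4, 9 were lower, against 5.46%, and 3 without DKO 2, against 4.55%. The 1 higher gene was Serpina1e. Susd4 was at 2.300, 1.27, 6.57 and 6.396 CPM against 13.2, 5.07, 27.4 and 34.7 CPM, and Elovl3, a fatty acid elongase, at 3.91, 5.38, 5.73 and 3.06 CPM against 5.32, 3.36, 104 and 47.5 CPM, high in TKO 3 and TKO 4. The summed male-biased level was 17298, 15659, 14176 and 12738 CPM in the albumin-rich and 17126, 3884, 29250.5 and 9398 CPM in the albumin-poor tumors, against 24454 to 41692 CPM in control livers, so every tumor but TKO 3 was below every control liver. The gene with the most counts in this sum was Serpina1e, the 1 higher gene.
Of 27 female-biased genes, 0 were higher and 0 lower without overlap. Without DKO 4, 2 were higher (6.14% of all genes were), and without TKO 3, 2 were lower (4.54%). The median of -0.30 (-0.79 without TKO 3) turned to 0.12 without DKO 4 and to 0.42 without DKO 4 and TKO 4. Cyp17a1, a steroid hydroxylase, was at 489 CPM in DKO 1 and at 1.46 to 9.24 CPM in the other tumors. Lpl, lipoprotein lipase, was at 422, 422, 225 and 602 CPM against 141, 294, 123 and 129 CPM, with 23.5 to 47.1 CPM in control livers, and Cyp2c38 and Fmo2 had the lowest differences, -1.18 and -1.21.
Central carbon metabolism and housekeeping lists were also described. Of 13 genes of gluconeogenesis and glycogen, 0 were higher and 0 lower without overlap, with a median of 0.10 (-0.21 with total counts, -0.03 without DKO 4, 0.02 without DKO 1, 0.05 without TKO 4, 0.15 without TKO 1, 0.24 without TKO 3, 0.29 without DKO 3, 0.33 without DKO 2 and -0.16 without DKO 4 and TKO 4). Fbp1 had the highest difference, 0.55, and G6pc and Pcx the lowest, -0.53 and -0.32. Of 18 glycolysis genes, 0 were without overlap and the median was -0.01 (-0.08 without DKO 1 to 0.07 without DKO 2), with Aldoc at 0.56 and Hk2 at -0.65 as the ends. Of 62 subunits of the respiratory chain, 0 were higher and 1, Cox4i1 of complex IV, was lower without overlap, at 204, 241, 282 and 262 CPM against 286, 302, 408 and 297 CPM. Without TKO 1, 3 were lower (3.88% of all genes were), and without TKO 3, 2 were higher (5.19%). The median was 0.00 (-0.11 without TKO 1 to 0.11 without TKO 3). With total counts, 3 of 18 glycolysis and 4 of 62 respiratory genes were lower without overlap, against 1658 of all 13882 genes. Their medians were then -0.32 and -0.30.
Of 74 cytosolic ribosomal proteins, 0 were without overlap in either direction. Without DKO 2, 5 were higher (5.08% of all genes were), and 4 without DKO 4 (6.14%). The median of 0.12 (0.03 without TKO 2 to 0.21 without DKO 2) turned to -0.18 with total counts. Rps12 and Rps6 had the highest differences, 0.65 and 0.48, and Rps25 and Rpl31 the lowest, -0.16 and -0.14. Of 4 nuclear RNAs used as a sign of RNA quality, 0 were without overlap. Malat1 was at 890.3, 424, 239 and 304 CPM against 339, 182, 172 and 396 CPM, and Meg3 was at 172 CPM in TKO 4 and at most at 3.22 CPM in the other tumors.

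Cell cycle genes had a higher mean in albumin-rich tumors for 43 of 44 (6903 of all 13882 genes had), with a median of 0.82 (0.53 with total counts). Of them 5 were higher and 0 lower without overlap, 17 were higher without TKO 2 (5.94% of all genes were), 9 without DKO 1 (4.999%) and 8 without DKO 3 (5.47%) or TKO 4 (4.93%). With total counts 0 of the list were without overlap, and with total counts without Alb 1, Ccne1, was. Ccne1, the cyclin that starts DNA replication, was at 7.13, 13.5, 19.96 and 10.9 CPM in the albumin-rich and 3.02, 4.07, 2.15 and 4.700 CPM in the albumin-poor tumors, against 1.598 to 4.76 CPM in control livers. E2f2, an activating E2F, was at 6.36, 8.86, 6.21 and 3.91 CPM against 3.84, 2.18, 1.69 and 1.87 CPM, and Cenpa, the centromeric histone, at 5.29, 8.38, 9.95 and 8.95 CPM against 4.67, 2.24, 4.37 and 3.21 CPM. Foxm1 and Ccnb1, which drive entry into mitosis, completed the 5, with differences of 1.00 and 0.91 at levels of at most 8.78 and 3.08 CPM. Mcm10, at the lower end of the list with -0.31, was below every control liver in 7 of the 8 tumors.
The summed level of the list, 388, 766, 741 and 404 CPM in the albumin-rich and 407, 229.5, 300.1 and 460.1 CPM in the albumin-poor tumors, did not separate the sides, with DKO 1 and TKO 2 below TKO 4. Mcm10 was the gene with the most counts in it.
For 34 oncofetal and progenitor genes the median was 0.34 (0.15 without DKO 2 to 0.46 without TKO 2, and 0.04 with total counts). Without overlap, 4 were higher and 0 lower (2 lower without DKO 1, where 4.03% of all genes were). Tff3 led them, and Sox9, a factor of bile duct and progenitor cells, was at 20.2, 9.97, 10.4 and 18.9 CPM against 9.46, 2.299, 5.37 and 2.61 CPM, and overlapped with total counts and with total counts without Alb. H19, an imprinted RNA of fetal liver, was at 20.7, 128, 208 and 190.3 CPM against 42.8, 9.26, 27.00 and 7.91 CPM, with DKO 1 inside the albumin-poor range, and Akr1b7, an aldose reductase relative, was highest in DKO 4 at 116 CPM.

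Markers of endothelial cells, macrophages and stellate cells were mostly lower in albumin-rich tumors by their means, with DKO 3 and TKO 3 as the high tumors. Of 25 endothelial genes, 0 were higher and 4 lower without overlap (7 lower without TKO 4, where 3.87% of all genes were), with a median of -0.26 (-0.35 without DKO 4 to -0.18 without DKO 3). The mean log2 CPM of the list was 3.99 in DKO 3 and 4.04 in TKO 3, while DKO 4 and TKO 4, at 3.41 and 3.59, lay within the 3.41 to 3.63 of the albumin-rich tumors. The lower genes were Esam, Tie1, Sox18 and Mmrn2, of which Tie1, an endothelial receptor kinase, was at 11.4, 6.57, 11.7 and 13.3 CPM against 15.5, 20.3, 21.02 and 14.99 CPM. Clec4g and Oit3, of sinusoidal endothelium, had the highest differences, 0.82 and 0.50, and both were lowest in DKO 4. The summed endothelial level was 359.9, 374, 422 and 451 CPM in the albumin-rich and 566, 451, 684 and 395 CPM in the albumin-poor tumors, against 278 to 435 CPM in control livers, with Eng as the gene with the most counts.
Of 27 macrophage genes, 0 were higher and 2 lower without overlap, with a median of -0.38 (-0.56 without DKO 4 to -0.17 without TKO 3). Cd68, a lysosomal protein of macrophages, was at 13.6, 11.4, 12.1 and 14.1 CPM against 23.8, 25.2, 22.3 and 23.2 CPM, and Ctss, a lysosomal protease, at 38.6, 31.4, 28.9 and 40.2 CPM against 67.7, 42.7, 56.8 and 53.3 CPM. The Kupffer cell genes Marco and Cd5l had the highest differences, 0.88 and 0.44. Summed levels were 506, 429.5, 409 and 687 CPM and 917, 330.1, 1113 and 487 CPM, against 428 to 1032 CPM in control livers, with Clec4f as the gene with the most counts, so DKO 3 and TKO 3 were high and DKO 4 and TKO 4 were not.
Of 29 genes of stellate cells and fibroblasts, 0 were higher and 2 lower without overlap (7 lower without TKO 2, where 4.93% of all genes were, and 6 without DKO 4, with 5.46%), with a median of -0.53 (-0.87 without DKO 4 to -0.29 without DKO 3). Pdgfrb, the receptor that drives stellate cells, was at 10.1, 5.93, 10.1 and 13.5 CPM against 20.9, 14.7, 18.6 and 19.5 CPM, and Sparc, a matrix protein, at 139.6, 126, 165 and 149 CPM against 193, 235, 176 and 192 CPM, which overlapped with total counts without Alb. The summed level was 459, 403, 482 and 731 CPM and 1032, 467, 825 and 667 CPM, against 422 to 819 CPM in control livers, with Sparc as the gene with the most counts. Without DKO 4 and TKO 4 the numbers of lower genes were 15 of 25 endothelial, 17 of 27 macrophage and 11 of 29 stellate and fibroblast genes, against 10.6% of all tested genes in that setting. Without TKO 1 and DKO 3 they were 6, 2 and 2, against 6.82%, and 1 of the 29 was higher.
Of 11 bile duct markers tested, 1, Sox9, was higher without overlap (9.09%, against 3.54% of all tested genes), 0 with total counts or total counts without Alb, and the median of -0.03 lay between -0.32 without DKO 4 and 0.33 without DKO 3. Epcam and Krt19, defining markers of bile duct cells, were at 0.426 to 10.7 CPM and 0.497 to 6.67 CPM in albumin-rich and 1.07 to 13.8 CPM and 1.38 to 6.27 CPM in albumin-poor tumors. Summed levels were 268, 279, 300.3 and 288 CPM and 352, 228, 331 and 200.1 CPM, against 175 to 249 CPM in control livers, with Aqp1 as the gene with the most counts.
Of 19 lymphocyte genes, 1 was higher and 0 lower without overlap, with a median of -0.25 (-0.71 without DKO 4 to 0.13 without DKO 3). Without DKO 4, 3 were lower (5.46% of all genes were), and without DKO 4 and TKO 4, 10 of the 19 (10.6%), with a median of -1.02. The higher gene was Klrb1c, a receptor of natural killer cells, at 3.297, 1.503, 1.45 and 3.41 CPM against 0.7098, 0.118, 0.537 and 0.373 CPM. Ighm, the heavy chain of immunoglobulin M and the gene with the most counts in the list, was at 6.900, 18.5, 12.2 and 14.5 CPM and 169.9, 3.42, 45.6 and 20.1 CPM, and the summed level was 46.8, 84.5, 59.6 and 93.5 CPM and 349.8, 27.2, 129.7 and 65.6 CPM, against 64.3 to 155 CPM in control livers. Of 7 neutrophil genes, 0 were without overlap, the median was -0.62 (-1.06 without TKO 4 to -0.14 without DKO 3), and sums were 9.97, 5.93, 6.45 and 20.2 CPM and 29.99, 8.37, 22.3 and 4.85 CPM, with Mmp9 as the gene with the most counts and 6.03 to 20.6 CPM in control livers. Of the 7, 3 were lower without TKO 4 (3.87% of all genes were) and 6 without DKO 4 and TKO 4 (10.6%), with a median of -1.33.
Of 7 erythroid genes, 0 were without overlap, and the median was -0.14. It ran from -0.42 without DKO 3 to 0.13 without DKO 4, and was 0.06 without DKO 2 and 0.04 without TKO 3. The sums, led by the hemoglobin gene Hbb-b1, were 1486, 944, 2566 and 1043 CPM and 746, 2793, 2166 and 1108 CPM, against 1035 to 1355 CPM in control livers. Of 13 genes of pancreatic acinar cells, 3 passed the filter on low counts, 2 with a higher mean in albumin-rich tumors, 0 were without overlap, the median was 0.75 (0.44 without DKO 3 to 1.14 without TKO 4), and the summed level was 29.8, 77.8, 45.8 and 42.00 CPM and 14.4, 18.5, 36.2 and 54.98 CPM, against 20.7 to 67.4 CPM in control livers, led by Cela1. Clps, a defining acinar marker, was at 0 in every library, and in no other of these cell type lists was a gene at 0 in every tumor. The part of other cell types in the differences between the sides was not tested.

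The labelled groups could be tested, because the rule did not use the control livers or the genotype. Tumors of both genotypes were compared with control livers by edgeR's quasi-likelihood test over all 12 libraries. Of 13882 genes, 344 had an adjusted p under 0.05 (2.48%), 174 of them higher (1.25%) and 170 lower (1.22%) in tumors. DESeq2 called 1422 (814 higher and 608 lower), total counts as the only scaling gave 61 (51 higher and 10 lower) and total counts without Alb 798 (715 higher and 83 lower), so the balance of directions depended on scaling. The count also rested on single libraries, with 0 calls without control 2, control 3, TKO 1 or TKO 2, 6 without control 4 or DKO 1, 15 without DKO 2, 19 without control 1, 87 without DKO 4 and 1019 without TKO 3. Of the 491 genes higher in albumin-rich tumors, 12 were called higher and 0 lower in tumors, and of the 376 lower ones, 4 were called higher and 10 lower. None of the 30 genes with the highest and lowest differences between the sides was called, where 2.48% of all genes were. All these genes were chosen on values of the same tumors, and the test counts a gap between the sides as spread within genotypes. Nothing is read from these counts.
Among the genes that both separated the sides and passed this test, Tubb2a and Tubb2b, tubulin genes whose reads could be split between copies, had the lowest adjusted p. Tubb2a was at 221, 223, 117 and 123 CPM in the albumin-rich and 73.3, 91.9, 61.98 and 107 CPM in the albumin-poor tumors, against 18.1 to 24.2 CPM in control livers. All 8 tumors were above every control liver (log2 fold change 2.52, standard error 0.339, edgeR adjusted p = 0.0235, and 1.18e-11 to 0.132 over 19 alternatives). Tubb2b was also above the control livers in all 8 tumors (log2 fold change 2.18, standard error 0.3100, edgeR adjusted p = 0.0235, and 3.90e-09 to 0.132 over the alternatives). Between the albumin sides, Tubb2b had no overlap under any of the 4 scalings, and Tubb2a overlapped with total counts and with total counts without Alb. Both passed in 14 of the 19 alternatives, Sparc in 10, Pygb, Trpm4, Sugct and Sox18 in 9, Rbl2 and Etnk2 in 8, and Cebpb in 7.
Pygb, the brain form of glycogen phosphorylase, and Trpm4, a calcium-activated cation channel, were higher in tumors too. Pygb was at 80.7, 117, 151 and 142 CPM and 67.3, 66.3, 14.3 and 17.1 CPM, against 6.88 to 13.9 CPM in control livers, so TKO 3 and TKO 4 were only just above the control livers. Its log2 fold change was 2.93 (standard error 0.648, edgeR adjusted p = 0.0444, and 2.19e-05 to 0.148 over the alternatives), and that of Trpm4 was 2.53 (standard error 0.587, edgeR adjusted p = 0.0456, and 0.000199 to 0.164 over the alternatives), higher in all 8 tumors for either gene. Their albumin sides overlapped with total counts and with total counts without Alb.
Of the genes lower in albumin-rich tumors, Sugct, a mitochondrial transferase of glutaryl-CoA metabolism, was at 4.68, 4.03, 5.07 and 4.55 CPM and 10.8, 7.96, 17.8 and 13.7 CPM, against 18.96 to 35.5 CPM in control livers. All 8 tumors were below every control liver (log2 fold change -1.64, standard error 0.365, edgeR adjusted p = 0.0444, and 0.00164 to 0.151 over the alternatives). Rbl2, a pocket protein related to Rb1, and Etnk2, an ethanolamine kinase, showed the same order, with 16.9, 18.03, 15.5 and 15.7 CPM and 19.8, 21.2, 29.5 and 22.7 CPM for Rbl2 against 33.3 to 36.02 CPM in control livers (log2 fold change -0.79, standard error 0.158, edgeR adjusted p = 0.0405, and 0.000982 to 0.146 over the alternatives). In these 3 genes all albumin-poor tumors lay between the albumin-rich tumors and the control livers.
Sparc and Sox18 showed another order, with the albumin-rich tumors between the control livers and the albumin-poor tumors. Sparc was above every control liver in all 8 tumors (log2 fold change 1.07, standard error 0.196, edgeR adjusted p = 0.0405, and 4.70e-05 to 0.146 over the alternatives), as was Sox18, a factor of endothelial cells (log2 fold change 1.32, standard error 0.261, edgeR adjusted p = 0.0405, and 0.000747 to 0.146 over the alternatives). Cebpb was lower in tumors (log2 fold change -0.90, standard error 0.214, edgeR adjusted p = 0.0491, and 0.00628 to 0.162 over the alternatives), and below every control liver in 6 of 8 tumors.
TKO was then compared with DKO with the albumin side as a term in the model. By edgeR's quasi-likelihood test, 0 of 13882 genes had an adjusted p under 0.05 (0%), with 1271 at an unadjusted p under 0.05 and a lowest adjusted p of 0.114, and DESeq2 called 84 (44 higher and 40 lower in TKO). Without the side term, edgeR called 0 as well, with 1138 at an unadjusted p under 0.05 and a lowest adjusted p of 0.483. Leaving out TKO 4 gave 1 call, and skipping the filter on low counts gave 1. Whether a gene differed between the sides more in a genotype than in the other was not tested.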

How the data were processed

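The values are raw counts per gene, as the authors deposited them. They had placed SOLiD reads on mm9 with BWA and counted with FeatureCounts, and no normalization was applied. The table holds 26301 genes, of which 24191 had a symbol (99.4% of counts) and 20088 had mm9 coordinates, from GENCODE vM1 matched by symbol. Totals of 9165812 to 16424973 counts bound the precision of low genes. The Alb share was computed from raw counts, with 95% Wilson intervals that cover counting error only.
Tests used edgeR 4.0.16 in R 4.3.3, with TMM scaling, the filter filterByExpr (13882 genes kept), a mean for each of control, DKO and TKO (or genotype and albumin side over the 8 tumors), the quasi-likelihood test and Benjamini-Hochberg adjustment at 0.05. These steps were tested on simulated data. Standard errors are the absolute log2 fold change divided by the square root of the quasi-likelihood F statistic, as edgeR's test prints none. Levels are CPM and log2 CPM with a prior count of 2. Alternatives were DESeq2 1.42.0, scaling by its size factors or by total counts with or without Alb, a minimum of 10 counts per library or no filter, a prior count of 0.5, a block for the replicate number, and leaving out each library in turn. Leaving out TKO 1 and DKO 3, or DKO 4 and TKO 4, was added after the data were seen.
The division, its members and the 33 gene lists were chosen with earlier results of these data known. Named were Alb, the deleted and sex-linked genes, the 15 highest and 15 lowest differences without overlap at a mean of at least 5 CPM, the 2 highest and 2 lowest of each list, and the albumin family with its promoter factors. The following genes were chosen after their values were seen: Hnf4a, Gata6, Ahsg, Trf, Apoa1, Glul, Axin2, Lgr5, Hal, Cenpa, Foxm1, Ccnb1, Sox18, Mmrn2, Eng, Ctss, Clec4f, Sparc, Aqp1, Tubb2a, Tubb2b, Pygb, Trpm4, Sugct, Rbl2 and Etnk2. Some genes that the rule takes are not described.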

Additional observations from a re-analysis of the deposited data

Results flagged for a closer look

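In each of 651 groups of 4 libraries (control, DKO or TKO) for the genes and lists described, the lowest and highest value was compared with the others, and 35 groups (5.38%) had a value that stood apart by Dixon's rule, where chance alone gives about 1 in 20 groups. Groups of 4 tumors hold both albumin sides.
Among control livers these were, in CPM, Eif2s3y at 32.0 (44.998 to 47.1 in the other control livers), Serpina1d at 627 (925 to 965), Rps6 at 73.7 (94.1 to 98.7), Meg3 at 4.10 (2.58 to 2.71) and Foxm1 at 2.49 (0.984 to 1.04) in control 4, Pros1 at 139 (75.2 to 80.8), Gldn at 7.49 (1.48 to 1.69), Chrm3 at 3.78 (1.35 to 1.42), Gsta1 at 3.56 (11.2 to 12.3) and Cyp2a12 at 384 (663 to 715) in control 1, and Klrb1c at 0.136 (0.366 to 0.371) in control 3.
Among DKO tumors they were Rb1 at 11.3 (7.99 to 8.38 in the other DKO tumors), Cyp17a1 at 489 (4.01 to 7.39), Sdha at 226 (304 to 316) and Trf at 80622 (29897 to 33656) in DKO 1, Slc1a4 at 11.1 (40.4 to 52.3) in DKO 3, and Pros1 at 177 (95.4 to 103), Aldh1b1 at 9.37 (119.7 to 129) and Gls2 at 15.1 (184 to 296) in DKO 4.
Among TKO tumors they were Kdm5d at 2.29 (10.5 to 11.2 in the other TKO tumors) and Abcb11 at 174 (331 to 378) in TKO 1, Ngp at 2.15 (0.569 to 0.671) in TKO 3, and Eif2s3y at 38.9 (28.1 to 29.4), Cebpb at 34.2 (20.3 to 21.6), Gls2 at 37.8 (277 to 399), Lgr5 at 44.1 (1.93 to 2.13) and Slc38a3 at 647 (1299 to 1497) in TKO 4.
Mean log2 CPM stood apart for the promoter factors at 5.10 in control 1 (5.27 to 5.29 in the other control livers), bile duct markers at 2.47 in control 2 (3.04 to 3.15), erythroid genes at 5.32 in control 3 (5.67 to 5.73), neutrophil genes at 1.05 in control 4 (-0.37 to -0.19), periportal genes at 6.92 in TKO 4 (9.01 to 9.22 in the other TKO tumors), female-biased genes at 6.48 in DKO 4 (5.10 to 5.31 in the other DKO tumors), and endothelial genes at 3.99 in DKO 3 (3.41 to 3.48) and 4.04 in TKO 3 (3.59 to 3.63 in the other TKO tumors).
The difference between the albumin sides had opposite signs in the genotypes, each without overlap of 2 tumors against 2, for Ddx3y (0.30 in DKO and -0.33 in TKO tumors), Dbp (-2.17 and 1.16), Nfyc (-0.17 and 0.44) and the score of the promoter factors (-0.16 and 0.0891). These opposite directions were not tested.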

How the results depend on the processing

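The albumin sides were chosen on counts of these libraries, 4 tumors stand on each side, and differences between sides carry no test. A share of counts also depends on every other gene in the library, so the scaling bears on each comparison. Labels do not give age in numbers, sex, tumor grade or the meaning of the code letters, and the strand and multi-mapping settings are not known. The genotype contrast has 4 tumors per group.
For tumors against control livers, 344 calls (174 higher, 170 lower) became 1422 with DESeq2 (814, 608), 61 with total counts only (51, 10), 798 with total counts without Alb (715, 83) and 0 (without control 2, control 3, TKO 1 or TKO 2) to 1019 (without TKO 3) with single libraries left out. For TKO against DKO within sides, edgeR's 0 calls (1271 at an unadjusted p under 0.05) became 84 with DESeq2, 1 with no filter and 0 to 1 (without TKO 4) with single libraries left out. The 867 genes without overlap between albumin-rich and albumin-poor tumors became 1782 with total counts only, 232 with a difference of at least 1 on the log2 scale, 1948 without TKO 1 and DKO 3, 2878 without DKO 4 and TKO 4, and 1221 (without TKO 4) to 1611 (without DKO 4) with single tumors left out. Of 33 lists, 17 had a positive median, 9 with total counts only and 11 with total counts without Alb. The sex-linked list, at -0.06, ran from -0.14 to 0.00535 with single tumors left out and turned its sign only without TKO 4.
With the replicate number as a replicate block, the tumor calls were 441 (263 shared) and the genotype calls 0. Same-numbered DKO and TKO tumors correlated at 0.20, -0.01, 0.37 and 0.34 (numbers 1 to 4). The best-correlated TKO tumor was TKO 2 for DKO 1, TKO 1 for DKO 2, TKO 3 for DKO 3 and TKO 4 for DKO 4. Each best match was on the same albumin side, so these correlations cannot tell a pairing by number from the side. Numbers 1 and 2 are the albumin-rich and 3 and 4 the albumin-poor tumors, so the block absorbs the side.
Of 182 gene differences, 33 shifted by more than the spread within sides with total counts only, 1 with total counts without Alb and 22 without DKO 4 and TKO 4. Of 33 list medians, 11, 3 and 6 shifted in the same settings, and with single tumors left out 2 of 264 did or turned their sign in a list whose scores separated the sides (cytochrome P450 genes without DKO 1 and the sex-linked list without TKO 4). The sign of the median differed from that with all tumors in 31 of these 264, in 14 lists.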

Other observations

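Mia3 of the secretory list and Uqcr11 and Cox8a of the respiratory list had 0 counts in every tumor. Same-genotype pairs of tumors had a median root mean square difference of 0.780 and pairs of different genotypes 0.776 over all tested genes other than Alb.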
